A study of Homo sapiens with 14 samples.

Results

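Golgins are long coiled-coil proteins that project from the Golgi membrane and capture arriving vesicles before fusion. The set described here comprises 10 genes for golgins and Golgi coiled-coil tethers, found by symbol among the 28120 genes of the deposited table of counts, and all 10 passed the filter on low counts that left 15181 genes. GOLGA2 and TRIP11 sit at the cis face, GOLGA5 and GOLGB1 at the cisternal rims, GOLGA3 on the Golgi stack, and GOLGA1, GOLGA4, GCC1 and GCC2 at the trans-Golgi network through a GRIP domain, while AKAP9 is a scaffold that nucleates microtubules at the cis-Golgi and the centrosome. The set was selected on measured values: AKAP9 and GOLGA4 were about 10-fold lower after 3 h of treatment, and the other 8 tethers were added for comparison. The 3 h values are therefore a description, and no test is read from them.

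The study exposed PANC-1, an established human pancreatic cancer line, to proanthocyanidins (PA, plant polyphenols, 20 µg/ml) or to DMSO, the solvent. RNA was sequenced as read pairs from 7 groups of 2 libraries: 4 of DMSO (0, 3, 12 and 24 h) and 3 of PA (3, 12 and 24 h). The cells of all 7 groups were at low passage and grew as monolayers in DMEM with fetal bovine serum. The submitters call the repeats biological, but no label names separate cultures, so a p-value reflects the spread between the sequenced libraries and no more.

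The deposited counts summed over all genes to 26403984 to 35213154 reads a library. Replicates correlated across genes with Spearman's rho of 0.978 (PA 12 h, the lowest) to 0.996. Epithelial keratins (KRT7, KRT8, KRT18, KRT19) summed to 5298 to 6463 CPM (reads scaled to library size) in DMSO and 6954 to 17538 CPM in PA libraries. Endothelial markers summed to at most 1.48 CPM. The fibroblast sum (9.01 to 28.2 CPM in DMSO, 16.9 to 30.1 CPM in PA) was mostly COL1A1, and the leukocyte sum (34.2 to 46.7 and 45.9 to 67.8 CPM) mostly CD68. The other fibroblast and leukocyte markers never exceeded 17 reads, and no marker was at 0 in every library. The part of these sums in the results below was not tested. In bulk RNA, fewer cells of a kind and less RNA per cell cannot be told apart.

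The coding sequences of the 10 tethers fall into distinct compositions, so a stretch of 40 codons (120 bases) from the middle of each is shown, with G or C at the third position of a codon in capitals (the share of such codons is called GC3). They were read from GENCODE 29 transcripts (GRCh38), 5′ to 3′ on the coding strand. The first set holds the 5 tethers with the longest coding sequences: AKAP9 (ENSG00000127914.15, plus strand, stretch at chr7:92062282-92062401), GOLGA4 (ENSG00000144674.15, plus, chr3:37325124-37325243), GOLGB1 (ENSG00000173230.14, minus, chr3:121695561-121695680), GCC2 (ENSG00000135968.18, plus, chr2:108471796-108471915) and TRIP11 (ENSG00000100815.11, minus, chr14:92004949-92005068). Each of these stretches lies within coding exon sequence, and 9 to 17 of the 40 codons end in G or C.
AKAP9: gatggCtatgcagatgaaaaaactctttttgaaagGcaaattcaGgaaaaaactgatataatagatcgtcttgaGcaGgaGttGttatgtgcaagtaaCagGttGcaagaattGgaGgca
GOLGA4: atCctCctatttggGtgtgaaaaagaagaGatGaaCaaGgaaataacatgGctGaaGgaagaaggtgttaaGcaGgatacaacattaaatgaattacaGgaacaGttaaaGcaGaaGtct
GOLGB1: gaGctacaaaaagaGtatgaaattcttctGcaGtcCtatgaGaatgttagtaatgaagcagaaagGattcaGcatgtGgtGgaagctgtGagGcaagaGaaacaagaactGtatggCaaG
GCC2: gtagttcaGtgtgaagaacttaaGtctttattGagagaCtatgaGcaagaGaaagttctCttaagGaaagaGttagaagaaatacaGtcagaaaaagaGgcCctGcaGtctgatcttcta
TRIP11: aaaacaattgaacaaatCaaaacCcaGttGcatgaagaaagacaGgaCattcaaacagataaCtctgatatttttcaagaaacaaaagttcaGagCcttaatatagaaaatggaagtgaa
The second set holds the other 5 tethers: GOLGA5 (ENSG00000066455.11, plus, chr14:92810297-92811589, across an intron), GOLGA1 (ENSG00000136935.12, minus, chr9:124899431-124900523, across an intron), GCC1 (ENSG00000179562.2, minus, chr7:127583121-127583240), GOLGA2 (ENSG00000167110.15, minus, chr9:128260579-128260698) and GOLGA3 (ENSG00000090615.11, minus, chr12:132796014-132796133). Here 21 (GOLGA5) to 36 (GOLGA3) of the 40 codons end in G or C.
GOLGA5: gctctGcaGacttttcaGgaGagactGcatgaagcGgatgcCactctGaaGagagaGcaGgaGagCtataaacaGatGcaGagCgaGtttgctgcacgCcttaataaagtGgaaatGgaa
GOLGA1: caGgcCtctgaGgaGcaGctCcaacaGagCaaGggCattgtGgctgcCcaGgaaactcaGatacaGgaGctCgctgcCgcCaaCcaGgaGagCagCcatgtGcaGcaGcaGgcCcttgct
GCC1: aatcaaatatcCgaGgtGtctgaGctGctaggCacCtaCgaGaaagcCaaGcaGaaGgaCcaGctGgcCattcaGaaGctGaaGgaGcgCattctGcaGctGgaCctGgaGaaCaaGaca
GOLGA2: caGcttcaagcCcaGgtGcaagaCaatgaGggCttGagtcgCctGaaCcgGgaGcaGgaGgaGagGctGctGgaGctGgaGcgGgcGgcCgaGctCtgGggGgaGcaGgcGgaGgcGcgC
GOLGA3: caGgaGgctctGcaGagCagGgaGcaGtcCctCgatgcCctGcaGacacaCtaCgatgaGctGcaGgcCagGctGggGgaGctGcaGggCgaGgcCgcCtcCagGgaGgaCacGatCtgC

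Over the whole coding sequence GOLGA5 lies with the 5 long tethers in GC3, and the other 4 lie above them. AKAP9 (11730 nt), GOLGB1 (9807 nt), GOLGA4 (6729 nt), TRIP11 (5937 nt) and GCC2 (5052 nt) have a GC3 of 31.7% to 40.3%. The median of 12732 tested genes with a coding sequence is 1434 nt and 59.4%. GOLGA5 shares the low GC3 (39.7%) but is short at 2193 nt, and GOLGA3 (4494 nt) has the highest, 75%. GCC1, GOLGA1 and GOLGA2 lie between 55.5% and 67.6%, with coding lengths of 2301 to 3006 nt. The tethers share the codons of coiled coils: glutamate, lysine, glutamine and leucine fill 36.4% to 51.7% of their codons against a median of 27.3%. They spell them differently, with 62.6% to 73.4% of glutamate codons written GAA in the 5 long tethers, 68.8% in GOLGA5, 47.3% in GOLGA1 and 20.4% to 25% in GCC1, GOLGA2 and GOLGA3.

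In DMSO at 0 h, GOLGA4 had the highest level per length, 37.7 and 37.2 RPKM (a read density that allows for gene length and library size), followed by GOLGA2 at 29.5 and 35.8 RPKM. GOLGA5 (19.2 and 18.2 RPKM) and GOLGB1 (19.6 and 17.3 RPKM) came next and overlapped. GOLGA3 had 11.4 and 11.7 RPKM, GOLGA1 9.13 and 9.57 RPKM, TRIP11 6.69 and 5.36 RPKM, GCC1 5.4 and 6.16 RPKM, GCC2 5.09 and 5.07 RPKM, and AKAP9 2.62 and 2.84 RPKM. TRIP11 and GCC1 overlapped, and no other neighbours in that order did. The order changed with PA: at 12 h GOLGA2 (55.3 and 48.8 RPKM) was highest and GOLGA4 (3.34 and 2.82 RPKM) was below GCC1 (5.77 and 6.12 RPKM), with no overlap between GOLGA4 and its neighbours. The 5 long tethers held 41.6% to 52.5% of the summed RPKM of the 10 genes in DMSO libraries, 7.66% to 13.2% in PA 3 h, 6.92% to 7.52% in PA 12 h and 13.2% to 20.5% in PA 24 h. Over the same groups GOLGA4 went from 22.3% to 29.2% in DMSO down to 2.86% to 3.57% at PA 12 h, and GOLGA2 from 18.6% to 26.9% up to 49.4% to 59.1%. Those shares mix changes of all 10 genes.

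At 3 h, the time that chose AKAP9 and GOLGA4, AKAP9 had 35.3 and 43.5 CPM (TMM-normalised) in DMSO and 2.53 and 5.04 CPM in PA, from 80 and 182 reads. GOLGA4 had 269 and 337 CPM in DMSO and 23.5 and 47.1 CPM in PA. The fitted changes are 10.3-fold and 8.58-fold lower, and the nearest tether outside the choice, TRIP11, was 6.05-fold lower (56.2 and 67.0 CPM against 7.01 and 13.3 CPM). GCC2 was 5.4-fold and GOLGB1 5.00-fold lower. At 3 h the PA and DMSO libraries overlapped in GOLGA1 alone among the 10 tethers. The share of all genes without overlap was not counted. In AKAP9, GOLGA4, TRIP11, GCC2 and GOLGB1, PA replicate 1 was the lower. The remaining tethers ranged from 1.30-fold lower (GOLGA5) to 1.12-fold higher (GOLGA2). In edgeR 5 of 10 tethers were past the adjusted threshold of 0.05 with lower levels, where 1.58% of all genes were, and 0 with higher levels, where 0.138% were. Nothing is read from these counts, since the contrast chose the genes.

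**Figure D1:**
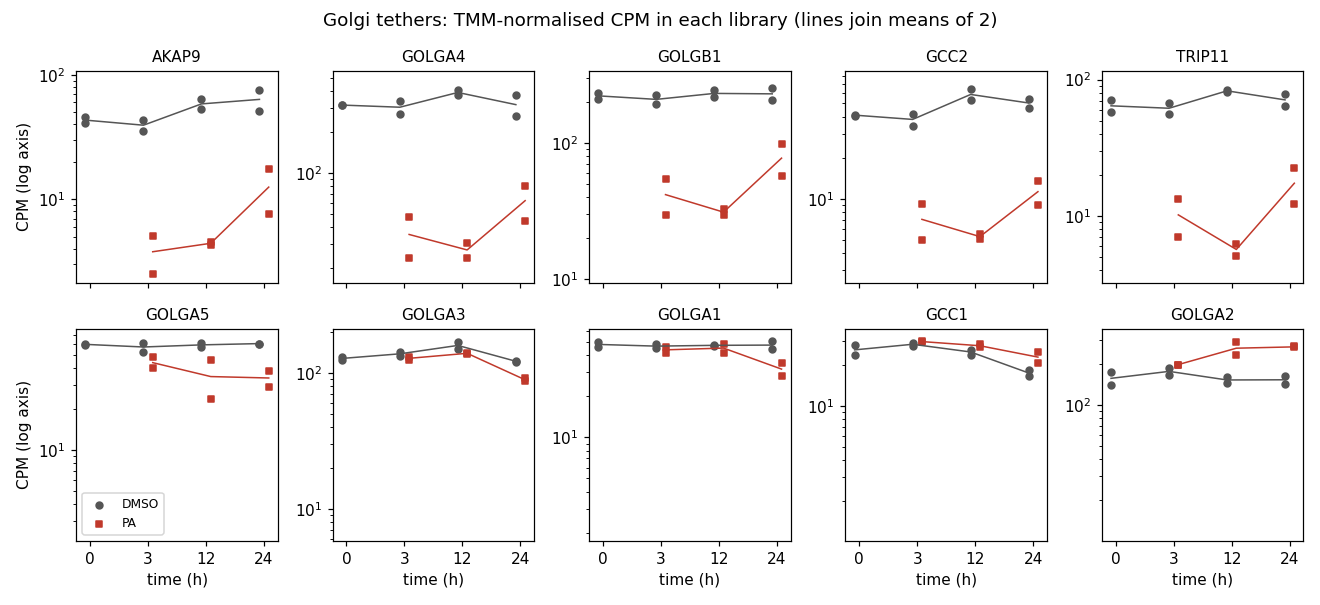
TMM-normalised CPM of each tether (log axis, each panel with its own range) against time in hours (sampling times drawn evenly spaced). Grey circles are DMSO libraries, red squares PA libraries and lines join means of 2; AKAP9, GOLGA4, GOLGB1, GCC2 and TRIP11 lie far below DMSO at every PA time, whereas GOLGA2 lies above it at 12 and 24 h.

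The choice of AKAP9 and GOLGA4 at 3 h did not use the 12 and 24 h libraries. All 10 genes were still chosen with earlier results of these data known, so their calls are not independent of that knowledge. At 12 h 6 of the 10 tethers fell and 1 rose in edgeR's quasi-likelihood test with Benjamini-Hochberg adjustment over all genes. Of all genes, 24.1% were called lower and 24.4% higher, and the median log2 change was −1.83 for the tethers and 0.01 for all genes. AKAP9, GOLGA4, GOLGB1, GCC2 and TRIP11 fell together by 7.44-fold to 14.6-fold, GOLGA5 fell less, and GOLGA2 rose. GOLGA1, GOLGA3 and GCC1 did not pass.

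AKAP9 had 52.8 and 64.0 CPM in DMSO and 4.53 and 4.32 CPM in PA at 12 h. That is a log2 change of −3.72 (SE 0.375, adjusted p = 1.50e-05), or 13.2-fold lower, with only 126 and 121 reads left. GOLGA4, which captures endosome-derived carriers through the small GTPase ARL1, had 373 and 406 CPM in DMSO and 30.8 and 23.5 CPM in PA. Its change was −3.84 (SE 0.339, adjusted p = 5.95e-06), or 14.3-fold lower. TRIP11 and GOLGA4 had near-equal falls at 12 h, apart by less than their SEs.

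TRIP11 (GMAP-210), which binds curved membranes at the cis face, fell from 84.0 and 81.3 CPM to 5.07 and 6.25 CPM, a log2 change of −3.87 (SE 0.321, adjusted p = 4.36e-06). GCC2 (GCC185), a trans-Golgi GRIP golgin, fell from 52.7 and 63.8 CPM to 5.07 and 5.46 CPM, a log2 change of −3.47 (SE 0.27, adjusted p = 2.37e-06). GOLGB1 (giantin), the longest rim golgin, fell from 245 and 218 CPM to 32.5 and 29.6 CPM, a log2 change of −2.90 (SE 0.282, adjusted p = 1.14e-05). In all 5 genes the PA libraries lay far outside the DMSO libraries and close to each other. Lack of overlap alone does not mark them, since only GOLGA1 among the 10 tethers overlapped at 12 h. The alternative fits that follow reuse the same libraries, so their number is no count of independent support. Over 140 alternative fits at 12 and 24 h, their direction and call held in 140, with log2 changes of −4.04 to −1.95 at 12 h and −3.07 to −0.84 at 24 h and a largest adjusted p of 0.00827.

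GOLGA5 (golgin-84), a membrane-anchored rim golgin that tethers vesicles within the stack, had 60.6 and 57.1 CPM in DMSO and 23.4 and 45.5 CPM in PA at 12 h. Its log2 change of −0.77 (SE 0.238, adjusted p = 0.0166) rests on PA replicate 1: without that library it was −0.37 (adjusted p = 0.133). Without either DMSO library the call was lost (adjusted p = 0.0935 and 0.0607) but the change stayed as large (−0.73 and −0.82). GOLGA2 (GM130), the cis-Golgi golgin that holds the stacking protein GRASP65 and recruits AKAP9, had 144 and 161 CPM in DMSO and 290 and 231 CPM in PA. It rose by 0.77 (SE 0.149, adjusted p = 0.00112), with no overlap between the groups. GOLGA2 has related copies in the GOLGA6 and GOLGA8 families and GCC2 in the RGPD family. Whether reads were shared with them was not tested, so both values are uncertain to that extent.

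GOLGA3 (golgin-160) had 170 and 149 CPM in DMSO and 138 and 141 CPM in PA at 12 h (log2 change −0.19, SE 0.119, adjusted p = 0.197). The groups did not overlap, and the adjusted p was 0.0266 after the length and GC correction and 0.0407 with limma on log2(RPKM + 1). GOLGA1 (golgin-97), another ARL1-binding GRIP golgin, had 47.2 and 47.5 CPM in DMSO and 41.7 and 48.8 CPM in PA, which overlapped (log2 change −0.07, adjusted p = 0.731). GCC1 (GCC88) had 25.8 and 23.7 CPM in DMSO and 28.2 and 26.9 CPM in PA (0.15, adjusted p = 0.399). The 4 GRIP golgins of the trans-Golgi network thus split at 12 h, GOLGA4 and GCC2 having fallen and GOLGA1 and GCC1 not having passed. The difference between those pairs was not tested.

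**Figure D2:**
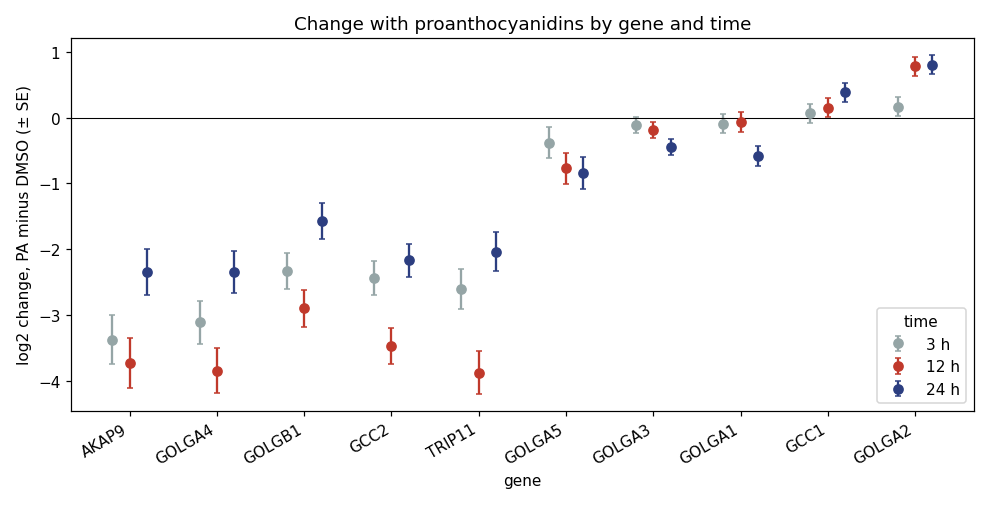
Fitted log2 change, PA minus DMSO (vertical axis, ± SE), of the 10 tethers at 3 h (grey), 12 h (red) and 24 h (blue), from 2 libraries a group; 3 h is shown as a description. AKAP9, GOLGA4, GOLGB1, GCC2 and TRIP11 lie between −3.87 and −1.57 at every time, and the other 5 between −0.84 and 0.80.

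At 24 h 8 of the 10 tethers were lower and 2 higher in PA than in DMSO of the same time, where 27.5% of all genes were called lower and 27.2% higher. The median log2 change was −1.20 for the tethers and −0.01 for all genes. On the authors' RPKM scale, which lacks the TMM factors, PA values are shifted by a log2 value of −0.37 against DMSO at 24 h and of −0.18 at 12 h. There limma on log2(RPKM + 1) called 5176 genes lower and 2496 higher at 24 h, against 4169 and 4127 in edgeR. The 5 long tethers fell and GOLGA2 rose on both scales.

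AKAP9 had 51.2 and 75.8 CPM in DMSO and 17.5 and 7.57 CPM in PA at 24 h, a log2 change of −2.34 (SE 0.344, adjusted p = 0.000122). GOLGA4 had 262 and 372 CPM in DMSO and 80.7 and 44.4 CPM in PA, also −2.34 (SE 0.316, adjusted p = 6.74e-05). Both genes were thus 5.07-fold lower, and in each the PA replicate 1 library was the higher. TRIP11 had 64.0 and 77.9 CPM in DMSO and 22.5 and 12.2 CPM in PA (−2.03, SE 0.292, adjusted p = 0.000104). GCC2 had 46.6 and 54.3 CPM against 13.5 and 9.06 CPM (−2.16, SE 0.252, adjusted p = 2.43e-05). GOLGB1 had 205 and 254 CPM against 98.0 and 56.8 CPM (−1.57, SE 0.268, adjusted p = 0.000336). None of these PA libraries reached its DMSO libraries, which held for every other tether at 24 h as well. The share of all genes without overlap was not counted.

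The smaller changes at 24 h were of 2 kinds. GOLGA5 (60.1 and 60.2 CPM in DMSO, 38.1 and 29.1 CPM in PA) fell by 0.84 (SE 0.239, adjusted p = 0.00902). GOLGA1 (50.6 and 44.5 CPM against 35.1 and 28.3 CPM) fell by 0.59 (SE 0.148, adjusted p = 0.00453), and GOLGA3 (123 and 121 CPM against 86.7 and 91.6 CPM) fell by 0.45 (SE 0.12, adjusted p = 0.00599). Without PA replicate 2 the adjusted p was 0.0925 for GOLGA5 and 0.0626 for GOLGA1, and without DMSO replicate 1 it was 0.0536 for GOLGA1. GOLGA2 (143 and 163 CPM in DMSO, 269 and 264 CPM in PA) rose by 0.80 (SE 0.149, adjusted p = 0.000582). GCC1 (18.2 and 16.6 CPM against 20.7 and 24.7 CPM) was higher in PA by 0.39 (SE 0.144, adjusted p = 0.0355). In DMSO GCC1 stood at 23.7 and 27.7 CPM at 0 h, which overlap its PA level at 24 h, and PA at 12 h had 28.2 and 26.9 CPM. The call of GCC1 at 24 h was lost in 10 alternative fits, among them the length and GC correction (0.27, adjusted p = 0.0675), limma on log2(RPKM + 1) (0.05, adjusted p = 0.706), and the fits without DMSO replicate 1 (0.46, adjusted p = 0.0762), DMSO replicate 2 (0.32, adjusted p = 0.198) or PA replicate 2 (0.25, adjusted p = 0.258).

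The PA effects at 24 and 12 h were compared directly. For the 5 long tethers the effect at 24 h was nearer to 0, with log2 differences of 1.84 for TRIP11 (SE 0.413, adjusted p = 0.0862), 1.5 for GOLGA4 (adjusted p = 0.205), 1.38 for AKAP9 (adjusted p = 0.345), 1.33 for GOLGB1 (adjusted p = 0.193) and 1.30 for GCC2 (adjusted p = 0.172). The difference was −0.52 for GOLGA1 (adjusted p = 0.414) and −0.26 to 0.23 for the other 4. In edgeR 0 of the 10 passed, where 0.422% of all genes did, and 6 had an unadjusted p under 0.05. DESeq2 called 4 (TRIP11, GOLGA4, GOLGB1 and GCC2), and 65 lower and 124 higher of 12855 genes. With no filter on low counts edgeR called 5 (those 4 and AKAP9), and 83 lower and 186 higher of 28120 genes. The length and GC correction called 2 (TRIP11 and GCC2), and 131 lower and 184 higher of 15181 genes. The count was 2 (TRIP11 and GOLGA4) without PA 12 h replicate 1, and 1 (TRIP11) without PA 12 h replicate 2 or without PA 24 h replicate 2. Whether a call is made here thus depends on the tool, the filter and single libraries.

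In DMSO alone, no tether passed between 0 and 12 h (0 of 10, 1 with an unadjusted p under 0.05, DESeq2 0), where 1.46% of all genes did. Log2 differences were 0.50 for GCC2, 0.43 for AKAP9, 0.37 for TRIP11, 0.32 for GOLGA3 and 0.31 for GOLGA4, with adjusted p of 0.193 to 0.629, and −0.05 to 0.06 for the other 5. Fitted on the 4 libraries of that comparison alone, these 5 named tethers passed, as did 1455 lower and 1395 higher of the 14121 genes in that fit. Between 0 and 24 h 0 of 10 passed (1 with an unadjusted p under 0.05, DESeq2 1), where 2.46% of all genes did. GCC1 was lower by a log2 difference of −0.56 (adjusted p = 0.0575) and passed in DESeq2 (adjusted p = 0.022). AKAP9 differed by 0.55 (adjusted p = 0.42), GCC2 by 0.30 and the remaining 7 by −0.07 to 0.15. The largest of these differences in size was well under the falls of the 5 long tethers with PA at 12 and 24 h.

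To set AKAP9 and GOLGA4 against the other 8 tethers within each library, the mean log2 CPM of those 8 was subtracted. That mean mixes TRIP11, GCC2 and GOLGB1, which fell by like amounts, with 5 tethers whose changes were small, so the difference does not set AKAP9 or GOLGA4 apart from the former 3. For AKAP9 this contrast went from −0.63 and −0.33 in DMSO to −2.77 and −2.98 in PA at 12 h, a difference of −2.40 (SD 0.181 between replicates). At 24 h it went from −0.46 and 0.03 to −1.39 and −2.26, a difference of −1.61 (SD 0.499). For GOLGA4 the values were 2.19 and 2.34 in DMSO and −0.02 and −0.55 in PA at 12 h, a difference of −2.55 (SD 0.272). At 24 h they were 1.90 and 2.32 against 0.82 and 0.28, a difference of −1.56 (SD 0.34). On log2(RPKM + 1), which compresses low genes, the AKAP9 difference at 12 h was −0.90. No p is given, since the 8 genes were chosen with the results known.

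Profiles were compared over all 14 libraries, which include the 3 h libraries that chose AKAP9 and GOLGA4. Among 10829 genes, the highest Pearson correlations of log2 CPM with GOLGA4 were those of GCC2 (0.993), GOLGB1 (0.992), ANKRD12 (0.991), ANKRD26 (0.99) and TRIP11 (0.989), and AKAP9 had rank 7 (0.983). For AKAP9 they were EEA1 (0.988), an endosomal coiled-coil tether, GCC2 (0.985), GOLGB1 (0.984), GOLGA4 (0.983) and ZNF480 (0.983), and TRIP11 had rank 10 (0.975). The 14 points share the PA and DMSO split, depth and base composition, so the values only describe likeness. GOLGA5 followed GOLGA4 less closely (0.793), GOLGA1 (0.444) and GOLGA3 (0.297) loosely, and GCC1 (−0.40) and GOLGA2 (−0.79) ran the other way. ANKRD12 (coding length 6186 nt, GC3 27%) and ANKRD26 (5178 nt, 32.7%) resemble the 5 long tethers in coding sequence, as EEA1 does in GC3 (4233 nt, 33.0%), while ZNF480 is short (1605 nt, 34.0%).

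**Figure D3:**
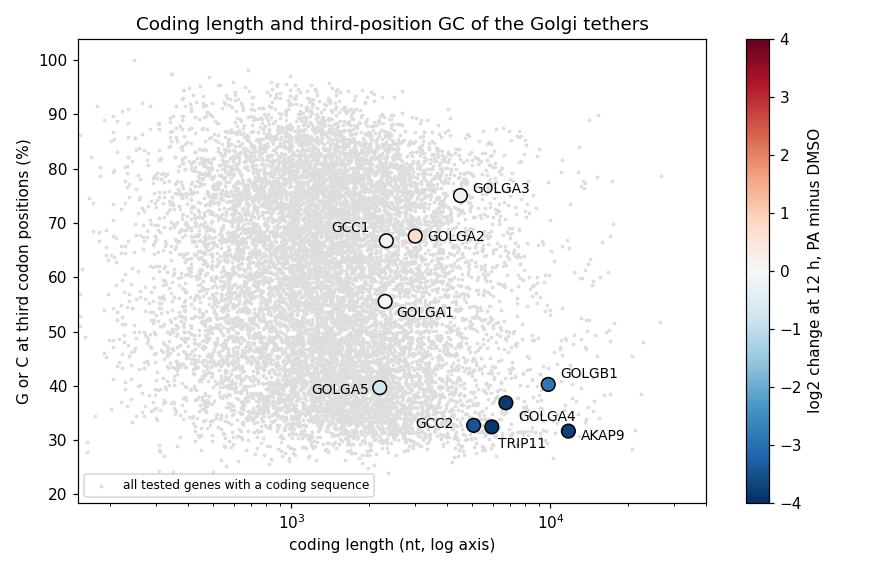
GC3, the share of codons that end in G or C (vertical axis, percent) against coding length (horizontal log axis, nt) for 12732 tested genes (grey dots) and the 10 tethers, coloured by log2 change at 12 h. AKAP9, GOLGB1, GOLGA4, TRIP11 and GCC2 lie at the lower right and are dark blue (−3.87 to −2.90), GOLGA5 is at the same height but short and pale blue, and GOLGA2 is pale red.

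Coding length and GC3 moved with the change across all genes as well. With limits set at the shortest coding length and the highest GC3 of the 5 long tethers (5052 nt and 40.3%, chosen after their values were seen), 172 genes were long and low in GC3. Of these, 136 (79.1%) fell at 12 h with a median log2 change of −1.42, and 126 (73.3%) fell at 24 h (median −1.35). Of 2061 shorter genes with low GC3, 66.9% fell at 12 h (median −0.87), and of 419 long genes with higher GC3, 29.6% did (median −0.16). The 10080 shorter genes with higher GC3 had 16.1% called lower and 33.2% higher (median 0.23). The 5 tethers were 5 of the 172 genes and lay below the lower quartile of that class at 12 h (−2.37), in which 56 genes were at least 4-fold lower. At 24 h GOLGB1 (−1.57) lay above the lower quartile (−1.86) and the other 4 below it. GOLGA5 (−0.77 at 12 h) was close to the median of its class of shorter genes with low GC3, and GOLGA2 (0.77) stood near the upper quartile of its class (0.71).

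The libraries themselves differed in how read density followed GC content. The slope of log2 CPM on the GC content of transcripts, per 10 percentage points and against the mean of all libraries, was −0.32 to −0.06 in DMSO libraries. It was 0.03 and 0.16 in PA 3 h, 0.58 and 0.12 in PA 12 h and 0.33 and 0.49 in PA 24 h. When each library's trend on length and GC was removed, the changes of the long tethers shrank but kept their call. At 12 h AKAP9 was then −2.58 (adjusted p = 1.53e-05), GOLGA4 −2.78, TRIP11 −2.69, GCC2 −2.42 and GOLGB1 −2.10. At 24 h AKAP9 was −1.34 (adjusted p = 0.000962), GOLGA4 −1.43, GCC2 −1.19, TRIP11 −0.97 and GOLGB1 −0.84 (adjusted p = 0.00546). GOLGA2 kept its rise (0.51 at 12 h and 0.59 at 24 h), and GOLGA5 was −0.38 at 12 h (adjusted p = 0.0581) and −0.40 at 24 h (adjusted p = 0.0434). The part of the GC slope in the falls cannot be told apart from that of treatment where the trend itself differs between PA and DMSO libraries.

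**Figure D4:**
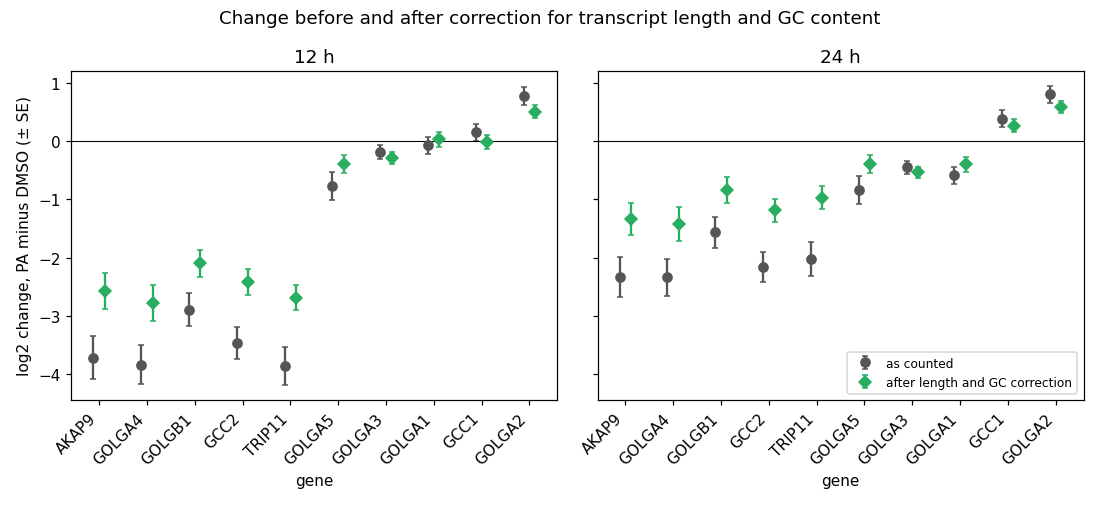
Log2 change, PA minus DMSO (vertical axis, ± SE), of each tether at 12 h (left) and 24 h (right) from the counts as deposited (grey circles) and after removal of each library's trend on transcript length and GC content (green diamonds). The 5 long tethers move up by 0.73 to 1.18 and stay below 0; the other 5 move by at most 0.44.

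Transcripts of other genes overlap 2 of the tethers. GOLGA4 shares 446 exonic bases with the antisense gene AC097359.2, which had at most 59 reads in a library, and GCC2 shares 62 with GCC2-AS1, with at most 6 reads. Without a stated strand setting, reads of a gene and its antisense partner cannot be told apart. GOLGA4 had at least 659 reads and GCC2 at least 141 in every library. What part of those reads came from the antisense genes was not tested.

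Golgins act with partners that anchor them, recruit them or receive their vesicles. At 12 h 24.1% of all genes were called lower and 24.4% higher, and at 24 h 27.5% and 27.2%, and each count below stands beside these shares. Of 18 tested matrix partners and other Golgi coiled-coil proteins, 9 fell and 1 rose at 12 h (median log2 change −0.40, all genes 0.01), and 10 fell and 2 rose at 24 h (median −0.46, all genes −0.01). CCDC186, a coiled-coil protein of the trans-Golgi network, fell by 2.89 at 12 h (SE 0.431, adjusted p = 0.000228), from 37.7 ± 4.41 to 5.09 ± 0.684 CPM (SD, n = 2). GORAB, a golgin-like protein of the trans-Golgi, fell by 1.64 (adjusted p = 0.000315), from 12.0 ± 0.33 to 3.85 ± 1.43 CPM (SD, n = 2).

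Among 19 tested small GTPases and regulators that recruit golgins, 4 fell and 4 rose at 12 h (median 0.30), and 4 fell and 7 rose at 24 h. ARFGEF1, an exchange factor that activates ARF at the trans-Golgi network, fell by 1.65 (adjusted p = 0.000669), and RAB33B, a Golgi Rab, by 1.26 (adjusted p = 0.0036). RAB1B, which acts between the endoplasmic reticulum and the Golgi, rose by 0.78 (adjusted p = 0.00241). NAA38, a subunit of an N-terminal acetyltransferase that acts on Golgi GTPases, rose by 1.25 (adjusted p = 0.000121). The 4 of 19 in each direction at 12 h are near the 24.1% and 24.4% of all genes, so the count sets this list apart from other genes in neither direction.

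The multisubunit tethers are no golgins. Their counts at 12 h are small and stand beside 24.1% and 24.4% of all genes called lower and higher. In the COG complex, the tether of vesicles within the stack, 2 of 8 fell and 1 rose at 12 h, with COG6 at −1.03, COG3 at −0.98 and COG4 at 0.52. In GARP and EARP, which receive endosomal carriers, 2 of 5 fell and 2 rose: VPS50 (listed as CCDC132) by −1.81 and VPS54 by −0.82 against VPS51 at 1.18 and VPS52 at 0.48. Of 14 TRAPP subunits, which activate RAB1 and tether vesicles at the cis face, 6 fell and 5 rose, with TRAPPC8 at −1.21, TRAPPC2 at −1.79, TRAPPC2L at 1.21 and TRAPPC6A at 1.79. TRAPPC6A was near the detection limit in DMSO at 12 h (0.653 ± 0.148 CPM, SD, n = 2). TRAPPC2 was also low, at 2.31 CPM in DMSO and 0.663 CPM in PA. At 24 h 2 of 8 COG, 2 of 5 GARP and EARP and 5 of 14 TRAPP genes fell, and 0, 2 and 5 rose (COG4 was 0.23 with an edgeR adjusted p of 0.16).

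Of 13 Golgi SNAREs, the proteins that fuse a tethered vesicle, 4 fell and 4 rose at both 12 and 24 h, beside 24.1% and 24.4% of all genes at 12 h and 27.5% and 27.2% at 24 h. STX16, a trans-Golgi syntaxin, fell by 0.84 at 12 h (adjusted p = 0.0009), and BET1, of the early Golgi, fell by 0.93 (adjusted p = 0.00749). STX10 rose by 1.41 (adjusted p = 0.00029) and STX5, the cis-Golgi syntaxin, by 0.90 (adjusted p = 0.00068). In the COPI coat, which forms the vesicles that rim golgins capture, 1 of 9 fell (ARCN1, −0.41) and 5 rose, with COPE at 1.24 and COPZ2 at 1.28 and a median of 0.53 at 12 h and 0.75 at 24 h. COPZ2 was near the detection limit (0.715 ± 0.188 CPM in DMSO at 12 h, SD, n = 2).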

How the data were processed

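RNA of PANC-1 cells was read as 151-nt pairs by Illumina sequencing, per the labels' protocols, in 14 libraries of 7 groups (2 each). The authors deposited counts, whole numbers of reads per gene without normalization (28120 genes), and RPKM values (25447 genes). TopHat2, edgeR and GRCh38 are named, without versions or roles, per the submitters' processing notes. No source used here gives the counting tool, strand setting or annotation.

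Counts were fitted in R 4.3.3 with edgeR 4.0.16 (TMM, filterByExpr by group, quasi-likelihood fit of all 14 libraries, 7 residual degrees of freedom, biological coefficient of variation 15.07%). Contrasts were PA minus DMSO at each time, the 24 h minus the 12 h effect, and DMSO over time. P-values are two-sided and Benjamini-Hochberg adjusted over 15181 genes, with a threshold of 0.05. The SE is the log2 change divided by the square root of F. The edgeR fit was tested on simulated counts for the PA minus DMSO contrast at 12 h, and the alternatives were not.

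The 10 genes and the lists were chosen with earlier results of these data known. Named genes were all 10 tethers, the 5 genes most correlated with AKAP9 and with GOLGA4, and from each list up to 2 largest rises and 2 largest falls past the threshold at 12 h. A gene that this rule names is not reported here. Lists are described by counts and medians. Markers were 4 keratins and 6 fibroblast, 6 leukocyte and 5 endothelial genes. TMF1, RAB30 and MTUS2 were not tested. Alternatives were DESeq2 1.42.0 and its size factors, no filter, a replicate block, the libraries of a comparison alone, removal of each library's spline trend (5 degrees of freedom) on transcript length and GC content (GENCODE 29, 15071 genes, 99.28%), limma 3.58.1 on log2 RPKM (pseudocounts 1 and 0.1, RPKM of at least 0.5 in 2 libraries) and leaving out each library. Coding length, GC3 and sequences came from GENCODE 29 transcripts.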

Additional observations from a re-analysis of the deposited data

How the results depend on the processing

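At 12 h the counts of 6 lower and 1 higher and at 24 h that of 8 lower stayed within 1.5 times under every alternative run. The 2 higher at 24 h (GOLGA2 and GCC1) became 1 with no filter, with the libraries of the comparison alone, with the length and GC correction (also in the replicate block), with limma on log2(RPKM + 1), log2(RPKM + 0.1) or without a filter, and 1 to 2 with a library left out. The count of differences between 24 and 12 h (0) was 4 in DESeq2, 5 with no filter, 2 with the length and GC correction, 1 with that correction in the replicate block, and 0 to 2 with a library left out. For DMSO at 12 against 0 h the count of 0 was 5 with the libraries of the comparison alone; for 24 against 0 h it was 1 in DESeq2, 2 with those libraries alone, 1 with the correction and 1 with the correction in the replicate block. The causes were not tested. Members given by range in DMSO had the other sign in 25 of 70 fits at 12 h and 29 of 98 at 24 h, with 0 called.

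Against the other 8 tethers, AKAP9 was −0.90 at 12 h and −0.74 at 24 h on log2(RPKM + 1), and −2.59 at 12 h with the median of the 8. Within replicate block pairs 1 and 2, AKAP9 was −2.15 and −2.65 at 12 h and −0.93 and −2.29 at 24 h, and GOLGA4 was −2.22 and −2.89 at 12 h and −1.08 and −2.04 at 24 h. Same-numbered libraries did not deviate together: correlations of their deviations from group means exceeded 0.1 in 2 of 21 group pairs (range −0.22 to 0.24). As a covariate alone the replicate block changed no count of tethers by over 1.5 times, and gave 3563 genes lower and 3535 higher at 12 h against 3665 and 3698.

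Signs changed only in values that passed no test. GOLGA1 at 12 h was 0.0333 with the correction, 0.0338 with it in the replicate block and −0.182 to 0.0476 with a library left out (the highest without PA 12 h replicate 1). GCC1 at 12 h was −0.0154 with the correction and −0.0159 with it in the replicate block. The 24 h minus 12 h difference of GOLGA2 was −0.147, −0.149 and −0.147 in the 3 limma fits and −0.131 to 0.196 with a library left out, below 0 without DMSO 12 h replicate 2 (−0.0656), PA 12 h replicate 2 or DMSO 24 h replicate 1 (−0.0658). That of GOLGA5 was 0.00249 with the correction in the replicate block and −0.474 to 0.488 with a library left out, above 0 if PA 12 h replicate 2 or PA 24 h replicate 2 (0.109) was the one omitted.

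Over all genes, the 240 lower and 21 higher at 3 h were 391 and 148 in DESeq2, 859 and 256 with no filter, 939 and 244 with those libraries alone and 385 and 271 with the correction, and fell to 27 and 1 without PA 3 h replicate 1, the lowest with a library left out. The 12 h counts were 1717 and 1954 with those libraries alone. Leaving out a PA 12 h library moved them in opposite directions, down without replicate 1 and up without replicate 2. The 24 and 40 genes lower and higher between 24 and 12 h were 65 and 124 in DESeq2, 0 and 0 with those libraries alone, 49 and 30 with limma on log2(RPKM + 1), and 246 and 276 without PA 12 h replicate 1. With 2 libraries a group, a fit without 1 assumes that the lone library varies like the other groups. The 121 to 182 reads of AKAP9 in PA at 3 and 12 h, bar the 80 of PA 3 h replicate 1, limit its precision.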

Other observations

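A list on microtubule anchoring at the Golgi, a task of AKAP9, also held centrosomal and gamma-tubulin complex genes. Of its 10 tested genes, 6 fell and 1 rose at 12 h (median log2 change −0.56, all genes 0.01), where 24.1% of all genes were called lower and 24.4% higher. At 24 h 8 fell and 1 rose (median −1.08, all genes −0.01), where 27.5% and 27.2% of all genes were called. NIN (ninein), a centrosomal anchor of microtubule minus ends, fell from 65.4 ± 6.33 to 20.5 ± 6.28 CPM at 12 h (SD, n = 2), a log2 change of −1.67 (edgeR adjusted p = 0.000247), and −1.92 at 24 h. CAMSAP2, which holds free minus ends at the Golgi together with AKAP9, fell from 123 ± 8.19 to 49.7 ± 20.1 CPM at 12 h, −1.31 on the log2 scale (adjusted p = 0.00265). TUBGCP2, a subunit of the gamma-tubulin complex that AKAP9 binds, rose from 118 ± 0.709 to 190 ± 36.0 CPM, by 0.69 (adjusted p = 0.0022). NIN (GC3 50.9%) and CAMSAP2 (33.3%) lie below TUBGCP2 (79.2%) in GC3.

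Of 9 coiled-coil tethers of endosomes, 4 were called lower and 2 higher at 12 h and again at 24 h, beside 24.1% and 24.4% of all genes at 12 h and 27.5% and 27.2% at 24 h. EEA1, the early endosomal tether whose profile was the most like that of AKAP9, fell from 60.4 ± 6.56 to 5.72 ± 0.713 CPM at 12 h (SD, n = 2), a log2 change of −3.40 (edgeR adjusted p = 9.15e-06), and −1.41 at 24 h (adjusted p = 0.0013). ZFYVE16 (endofin) fell by 1.90 at 12 h (adjusted p = 0.00401). HOOK2 rose by 1.12 (adjusted p = 0.000463) and RABEP2 by 0.96 (adjusted p = 0.000558). EEA1 and ZFYVE16 have GC3 of 33.0% and 27.3%, and HOOK2 and RABEP2 of 76.6% and 83.3%. The falling genes named from the partner lists in the Results span 30.4% (CCDC186) to 57.8% (STX16). The rising ones span 60.3% (VPS52) to 84.3% (COPE). All of these genes were picked by their change, and a link with GC3 was not tested in them.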
